A study of Homo sapiens with 6 samples.

Results

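Interferon-stimulated genes and genes of the MHC class I antigen presentation pathway were followed in SH-SY5Y cells with and without a knockout of DNAJC12. The genes were chosen by name as 56 symbols, which stand for 55 genes because DDX58 is the older symbol of RIGI. Of these, 54 had an entry in the gene table of 20668 genes, and 47 of the 16403 genes that held enough counts to be tested were among them. MX2 had no entry, and IFI35, IFIT3, XAF1, GBP1, TRIM22, OAS2 and HLA-F were too low to test.

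SH-SY5Y is a human neuroblastoma line with features of sympathetic neuronal precursors. The knockout (KO) cells carry a CRISPR/Cas9 knockout of DNAJC12, a J-domain partner of the HSP70 chaperones, and are set against wild-type (WT) cells. There were 3 KO and 3 WT libraries, made from total RNA depleted of ribosomal RNA, and none of the cells was treated with interferon or any other agent. The labels do not say how many clones the KO cells represent, whether the 3 libraries of a genotype were separate cultures, or where the guide cuts, so the p-values reflect only how far these libraries differ from each other, and that spread may be technical.

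Cells that detect foreign nucleic acid through RIG-I-like receptors or DNA sensors activate IRF3 and IRF7 and secrete interferon. Interferon receptors signal through JAK kinases, STAT proteins and IRF9 to an interferon-stimulated response element (ISRE) in the promoters of genes whose products block viruses, such as the IFITM, IFIT, MX and GBP families. The same stimulus raises MHC class I: the immunoproteasome subunits PSMB8, PSMB9 and PSMB10 cut peptides, TAP1 and TAP2 pump them into the endoplasmic reticulum, tapasin (TAPBP) loads them, and the HLA heavy chains present them with beta-2-microglobulin (B2M). NLRC5 is the transactivator of these class I genes, and neuroblastoma cells are known for low MHC class I.

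Shown here are 2 kinds of sequence, the near-identical IFITM2 and IFITM3 coding sequences and ISRE-like stretches upstream of some genes that changed. Whether these stretches bear on the changes was not tested. The first 90 coding bases of both IFITM genes show how alike the genes are and where they differ in this stretch. They come from the GENCODE 29 transcripts ENST00000399808 (IFITM3, GRCh38 chr11:320724-320813, minus strand) and ENST00000399817 (IFITM2, GRCh38 chr11:308193-308282, plus strand), and capitals mark the bases that are not identical in the alignment of these coding sequences.
IFITM3: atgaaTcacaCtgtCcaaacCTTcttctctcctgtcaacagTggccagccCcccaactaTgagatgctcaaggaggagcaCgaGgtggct
IFITM2: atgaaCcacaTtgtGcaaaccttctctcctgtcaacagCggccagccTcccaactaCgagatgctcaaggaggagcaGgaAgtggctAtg
Over the whole coding sequence 372 of 399 aligned positions (93.2%) were identical. IFITM1 was identical to IFITM3 at 68.3% of positions.

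The ISRE was searched as the letters GAAANNGAAA on both strands in the 250 bases before each RefSeq gene start (GRCh38.p14 promoters). Overlapping matches were each counted. RefSeq promoters matched 41 of the 55 genes, and 23 of these (56.1%) held the motif, against 1014 of all 27305 genes with a promoter (3.71%). The windows of 60 bases shown here, one from each changed gene with a match, are written in the direction of the gene with the motif in capitals. IFI44L and OAS3 held a further match outside the window.
IFITM3 (higher in KO, chr11:320861-320920, minus strand): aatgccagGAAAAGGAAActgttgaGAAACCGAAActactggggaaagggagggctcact
IFIT5 (higher in KO, chr10:89414508-89414567, plus strand): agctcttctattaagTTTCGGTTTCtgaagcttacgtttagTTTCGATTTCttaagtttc
IFI44L (lower in KO, chr1:78620350-78620409, plus strand): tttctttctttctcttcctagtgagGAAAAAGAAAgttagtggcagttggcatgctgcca
OAS3 (lower in KO, chr12:112938414-112938473, plus strand): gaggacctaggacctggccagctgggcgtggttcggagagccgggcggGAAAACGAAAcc
TAP1 (lower in KO, chr6:32853798-32853857, minus strand): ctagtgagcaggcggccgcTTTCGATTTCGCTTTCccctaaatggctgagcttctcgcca
TAP2 (lower in KO, chr6:32838763-32838822, minus strand): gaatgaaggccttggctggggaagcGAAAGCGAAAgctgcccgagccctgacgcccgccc
TAPBP (lower in KO, chr6:33314079-33314138, minus strand): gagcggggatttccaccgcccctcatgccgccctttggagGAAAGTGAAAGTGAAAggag
The motif stood upstream of genes that were higher in KO cells, lower in KO cells and in neither class. It was found in both genes with a promoter among those higher in KO, in 5 of 7 among those lower, and in 13 of 27 (48.1%) of those that did not pass the test. The promoters of HLA-C and PSMB8 held no match in this window.

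Library totals ran from 19845788 to 21869659 counts in KO and from 19321842 to 20071795 in WT, and a floor of 3 counts corresponded to 0.137 to 0.155 CPM, the unit of counts scaled to the library total. Levels are CPM after TMM scaling, which adjusts for RNA composition, and fold changes are log2 values of KO over WT ± SE. A gene is called higher or lower when its Benjamini-Hochberg adjusted p from edgeR's quasi-likelihood test over all tested genes lies under 0.05. DNAJC12 itself had 5.91, 5.87 and 4.85 CPM in KO and 23.0, 21.4 and 20 CPM in WT (-1.95 ± 0.13, edgeR adjusted p = 1.25e-06). All 9 sympathetic neuroblast markers were measured, with summed levels of 4050 to 4120 CPM in KO and 4230 to 4380 CPM in WT. Leukocyte markers summed to 1.40 to 1.77 CPM in KO and 1.6 to 2.71 CPM in WT, with 4 of 8 in the table and CD3E, LYZ, CSF1R and TYROBP without an entry. None of the 3 plasmacytoid dendritic cell markers had an entry, and 1 of 3 endothelial markers did (0.144 to 0.713 CPM in KO, 0.0508 to 0.153 CPM in WT). Epithelial markers summed to 14.1 to 17.8 CPM in KO and 2.28 to 3.40 CPM in WT, mostly from KRT8, and fibroblast markers to 207 to 215 CPM in KO and 231 to 250 CPM in WT, with COL1A1 and PDGFRA higher and DCN lower. The part of these cell states in the results was not tested, and in bulk RNA fewer cells of a type and less RNA per cell cannot be told apart.

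The interferon and antigen presentation genes did not move in 1 direction. Of the 47 tested, 3 were higher in KO (6.38%) and 11 were lower (23.4%), 14 in all (29.8%), where 26.0% of all tested genes were called, 14.5% higher and 11.5% lower. The median fold change was -0.08 for the 47 genes and 0.0 for all genes. The 3 KO values lay above the 3 WT values in 6 of the 47 genes and below them in 16, against 21.7% and 20.1% of all genes and 41.7% for either. The share called was near that of all genes, and the balance between directions was the other way round. Grouped by role, 2 of 3 IFITM genes were higher, 1 of 17 other effectors was higher and 2 were lower, 1 of 9 sensors and 2 of 7 transcription factors were lower, and 6 of 11 MHC class I pathway genes were lower. Outside the MHC class I pathway 3 of 36 genes were higher and 5 lower, with a median of 0.01.

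**Figure D1:**
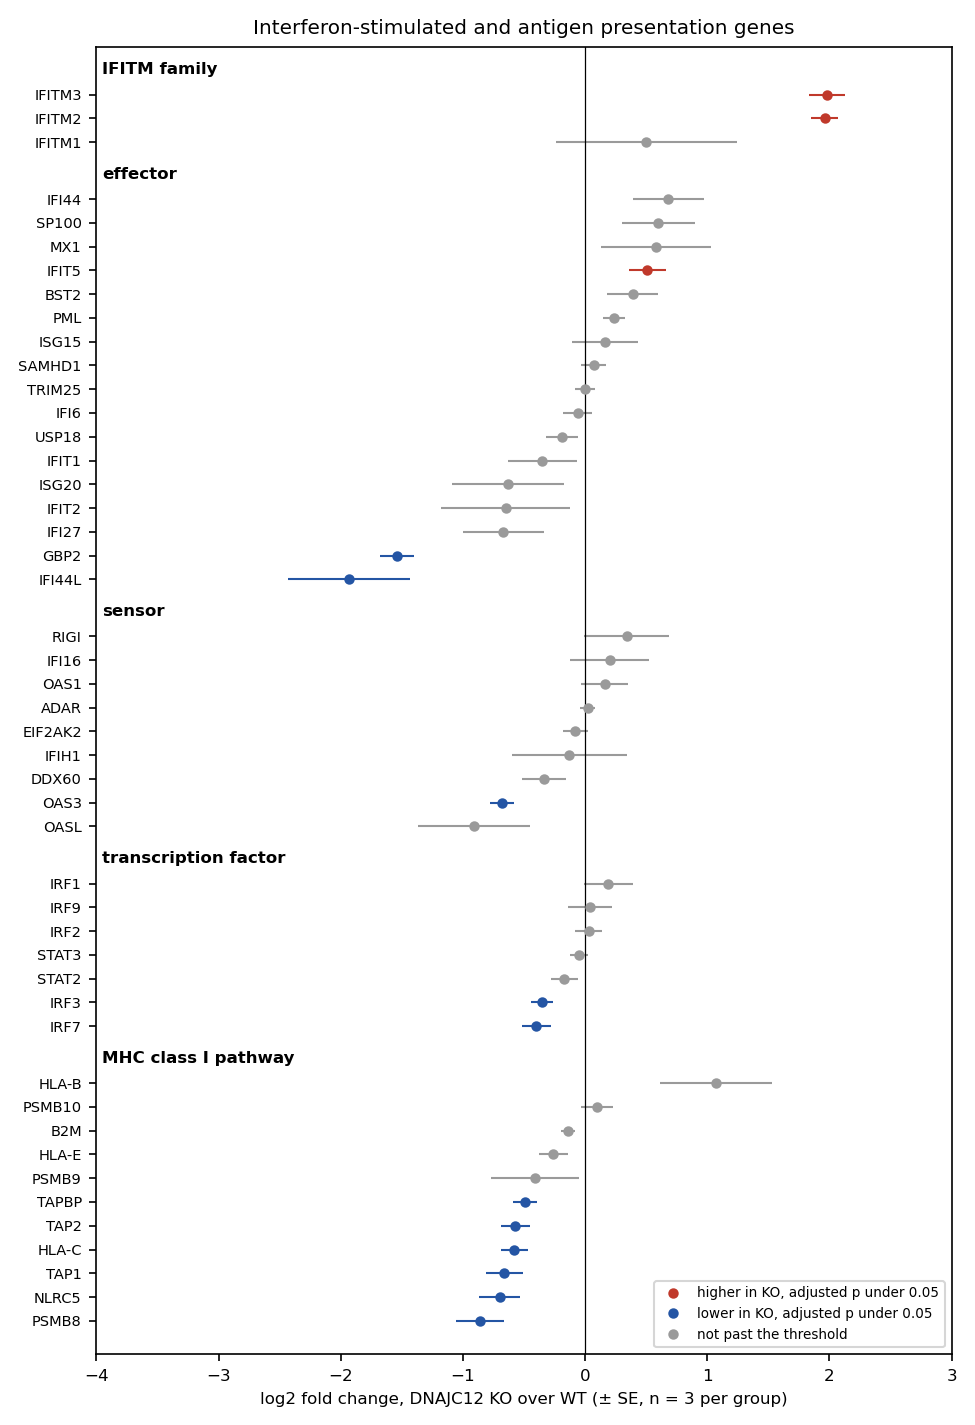
Log2 fold change of DNAJC12 KO over WT (± SE, n = 3 libraries per group) for the 47 tested genes, by role and in order of size; red points were higher and blue points lower at an edgeR adjusted p under 0.05, and grey points did not pass. IFITM2 and IFITM3 stand apart at the right near 1.97, and 6 of the 11 MHC class I pathway genes lie in blue left of 0.

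The 2 largest rises among the 47 genes were those of IFITM3 and IFITM2, membrane proteins that hinder the fusion of enveloped viruses with the cell. IFITM2 (ENSG00000185201, GRCh38.p14 chromosome 11 from 307816 to 309395) had 57.6, 44.8 and 52.1 CPM in KO libraries 1, 2 and 3, against 13.8, 12.8 and 13.0 CPM in WT libraries 1, 2 and 3. IFITM3 (ENSG00000142089, chromosome 11 from 319676 to 320860) had 24.6, 19.7 and 20.7 CPM in KO and 6.34, 4.57 and 5.52 CPM in WT. Every KO library lay above every WT library for both genes. The fold change was 1.96 ± 0.11 for IFITM2 (edgeR adjusted p = 5.32e-07) and 1.98 ± 0.15 for IFITM3 (edgeR adjusted p = 3.98e-06). Both kept their calls in all 15 other settings tried.

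Because the coding sequences printed above are so alike, the pair was also tested as 1 gene. The summed level was 82.2, 64.6 and 72.8 CPM in KO, a mean of 73.2 ± 8.84 (SD, n = 3), and 20.2, 17.4 and 18.6 CPM in WT, a mean of 18.7 ± 1.42 (SD, n = 3). The sum does not depend on how reads were divided between the 2 genes, and it rose by 1.97 ± 0.11 (edgeR adjusted p = 4.20e-07). IFITM3 held 29.9%, 30.6% and 28.4% of the pair's counts in KO and 31.4%, 26.3% and 29.8% in WT, so the groups overlapped in the split. The transcripts with reads were compared between IFITM1, IFITM2 and IFITM3. Of the 778 stretches of 31 bases in the IFITM3 transcript ENST00000399808, 233 (29.9%) also occurred in a transcript of another of these genes. For the IFITM2 transcripts ENST00000616316 and ENST00000399817 the shares were 19.3% and 16.1%. Most of each of these 3 transcripts was thus distinct from the other genes at that length. Sequence shared between the 2 IFITM2 transcripts was not counted, so the division of reads between them is uncertain.

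The rise was also seen in single transcripts of the transcript files. ENST00000399808 of IFITM3 had 482, 404 and 439 estimated reads in KO and 131, 87.4 and 101 in WT. ENST00000616316 of IFITM2 had 428, 316 and 548 estimated reads in KO and 118, 156 and 117 in WT. ENST00000399817 of IFITM2 had 289, 289 and 217 estimated reads in KO and 79.9, 19.2 and 46.2 in WT. Each of these transcripts was higher in all 3 KO libraries than in all 3 WT libraries. GENCODE 29 transcripts held 98.9% of the table's IFITM3 count and 66.3% of its IFITM2 count, and the rest of IFITM2 lies in transcripts that this release does not place. Per length, IFITM3 stood at 67.9 ± 7.46 TPM in KO and 17.9 ± 2.86 TPM in WT (SD, n = 3 each), and no such level is given for IFITM2 because of its unplaced reads. IFITM3 overlaps AC136475.1 on the opposite strand, which had 314 counts in all against 1666 for IFITM3, and the annotated gene of IFITM2 overlaps that of IFITM1 on the same strand, with 42 counts in all against 3973 for IFITM2.

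IFITM1, the third antiviral gene of the cluster, was near the limit of detection. It had 0.509, 0.193 and 0.513 CPM in KO and 0.0968, 0.660 and 0.102 CPM in WT, so that WT replicates 1 and 3 lay under the floor and the groups overlapped (0.50 ± 0.74, edgeR adjusted p = 0.684). Of 8 other tested genes within 100 kb of the cluster, 1 was higher and 7 did not pass (12.5% called, against 26.0% of all genes). The one that was higher, PGGHG, was named after its value was seen, and had 11.6, 7.03 and 9.42 CPM in KO and 6.15, 5.94 and 5.11 CPM in WT (0.70 ± 0.19, edgeR adjusted p = 0.0215).

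**Figure D2:**
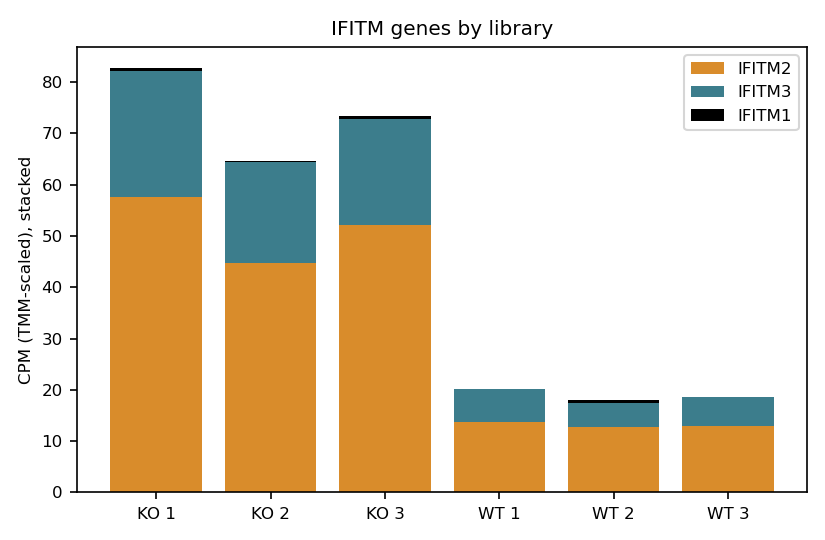
Level of IFITM2, IFITM3 and IFITM1 in each library, stacked, in TMM-scaled CPM; bars are single libraries, KO replicates 1 to 3 at the left and WT replicates 1 to 3 at the right. The summed level of IFITM2 and IFITM3 was 64.6 to 82.2 CPM in KO and 17.4 to 20.2 CPM in WT, with IFITM3 at about the same share in every library.

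Among the 17 other effectors tested, GBP2 and IFI44L were lower in KO and IFIT5 was higher. GBP2 (ENSG00000162645, chromosome 1 from 89106132 to 89126114) is a guanylate-binding protein, one of the large GTPases induced above all by interferon gamma. It had 6.67, 6.5 and 7.88 CPM in KO and 17.2, 21.9 and 22.0 CPM in WT, with no overlap, and fell by 1.54 ± 0.14 on the log2 scale (edgeR adjusted p = 1.68e-05). IFI44L (ENSG00000137959, chromosome 1 from 78620448 to 78646145), an interferon-induced gene, had 0.713, 0.385 and 0.233 CPM in KO and 2.23, 1.93 and 0.920 CPM in WT. The groups did not overlap (-1.93 ± 0.50, edgeR adjusted p = 0.0157), but the call was lost without KO replicate 3, WT replicate 1 or WT replicate 2, with an adjusted p of up to 0.0730.

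IFIT5 (ENSG00000152778, chromosome 10 from 89414568 to 89420997) encodes a protein that binds the 5′ ends of foreign RNA. It had 11.6, 14.4 and 14.3 CPM in KO and 7.65, 10.7 and 10.0 CPM in WT (0.51 ± 0.15, edgeR adjusted p = 0.0338). All KO libraries were above all WT libraries, yet the call was lost in 7 of the 15 other settings, among them the removal of KO replicate 2 or 3 or of WT replicate 1 or 3 (adjusted p up to 0.129). The other genes of the IFIT cluster did not pass. IFIT1 had 3.46, 2.94 and 2.75 CPM in KO and 5.04, 2.49 and 4.09 CPM in WT (-0.35 ± 0.28, edgeR adjusted p = 0.415), IFIT2 did not pass (-0.65 ± 0.53, edgeR adjusted p = 0.421), and IFIT3 had 7, 14 and 13 counts in KO and 5, 3 and 3 counts in WT, too few to test.

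The 3 effectors with the highest TPM among those that did not pass were IFI6, TRIM25 and ISG15. IFI6, a mitochondrial protein that protects cells from apoptosis, had 24.4, 18.9 and 23.6 CPM in KO and 24.4, 21.5 and 24.0 CPM in WT (-0.06 ± 0.12, edgeR adjusted p = 0.750). ISG15, the ubiquitin-like modifier, had 5.86, 3.47 and 5.41 CPM in KO and 5.86, 3.30 and 3.99 CPM in WT (0.16 ± 0.27, edgeR adjusted p = 0.716). TRIM25, the ubiquitin ligase that acts with RIG-I, averaged 100 ± 4.76 CPM in KO and 100 ± 7.93 CPM in WT (SD, n = 3 each; 0.00 ± 0.08, edgeR adjusted p = 0.983). The groups overlapped in all 3. MX1, the dynamin-like antiviral GTPase, was under 1.5 CPM in every library (0.58 ± 0.45, edgeR adjusted p = 0.408). Of the remaining effectors, IFI44, SP100 and PML had all KO libraries above all WT libraries without passing (0.68, 0.60 and 0.24), and ISG20 and IFI27 had all KO libraries below (-0.63 and -0.67).

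Of the 9 sensors tested, OAS3 was lower and the other 8 did not pass. OAS3 (ENSG00000111331, chromosome 12 from 112938474 to 112973251) makes the 2-5A messenger that activates RNase L on sensing double-stranded RNA. It had 23.0, 27.1 and 26.0 CPM in KO and 38.1, 39.1 and 45.0 CPM in WT, with no overlap, and fell by 0.68 ± 0.10 on the log2 scale (edgeR adjusted p = 0.000629). GENCODE 29 transcripts hold 55.1% of its count, and on counts summed from those alone it stood at -1.02 (edgeR adjusted p = 0.229). The share placed was uneven, at 10.6%, 48.5% and 77.5% in KO libraries 1, 2 and 3, and 75.3%, 49.0% and 55.3% in WT. Its family members OAS1 (5.16 ± 0.783 CPM in KO and 4.61 ± 0.566 CPM in WT, SD, n = 3 each; 0.16 ± 0.19, edgeR adjusted p = 0.603) and OASL (-0.91 ± 0.46, edgeR adjusted p = 0.186) overlapped between groups, and OAS2 had 1 to 5 counts per library.

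The most abundant sensors did not pass. ADAR, which edits adenosine to inosine in double-stranded RNA and so hides self RNA, had 525, 499 and 510 CPM in KO and 513, 519 and 479 CPM in WT (0.02 ± 0.06, edgeR adjusted p = 0.831). EIF2AK2, the kinase PKR that halts translation on sensing double-stranded RNA, had 80.8, 106 and 99.9 CPM in KO and 98.6, 108 and 96.0 CPM in WT (-0.08 ± 0.10, edgeR adjusted p = 0.618). The groups overlapped in both. The RNA helicase genes RIGI (0.34 ± 0.35, edgeR adjusted p = 0.536) and IFIH1 (-0.13 ± 0.47, edgeR adjusted p = 0.877) varied from library to library, RIGI between 3.87 and 7.61 CPM in KO and between 2.76 and 7.46 CPM in WT.

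Of the 7 transcription factors, IRF3 and IRF7 were lower by small amounts. IRF3 (ENSG00000126456, chromosome 19 from 49659572 to 49665857), the constitutive factor that sensors activate, had 49.2, 42.5 and 46.5 CPM in KO and 56.5, 56.6 and 62.7 CPM in WT (-0.35 ± 0.09, edgeR adjusted p = 0.0128). IRF7 (ENSG00000185507, chromosome 11 from 612555 to 615950), the factor that amplifies interferon production, had 8.91, 9.73 and 9.98 CPM in KO and 12, 12.3 and 13.5 CPM in WT (-0.40 ± 0.12, edgeR adjusted p = 0.0300). Neither pair of groups overlapped. The IRF3 call was lost without KO replicate 3 or WT replicate 3 (adjusted p up to 0.0546). The IRF7 call was lost without KO replicate 1 or 3 or any WT replicate (adjusted p up to 0.0926) and with DESeq2 (adjusted p = 0.0588). IRF3 overlaps BCL2L12 on the opposite strand, which had 3442 counts in all against 6354 for IRF3, and the sources used here do not state whether the counting used strand.

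The factors that carry the signal from the interferon receptors to the ISRE did not pass. STAT2 had 82.9, 60.1 and 78.0 CPM in KO and 87.3, 83.3 and 77.7 CPM in WT (-0.17 ± 0.11, edgeR adjusted p = 0.318). IRF9, its DNA-binding partner, had 25.8, 15.2 and 23.8 CPM in KO and 21.8, 22.8 and 18.3 CPM in WT (0.04 ± 0.18, edgeR adjusted p = 0.899). STAT3, which answers to cytokines of the interleukin 6 family as well, averaged 170 ± 8.49 CPM in KO and 176 ± 10.2 CPM in WT (SD, n = 3 each; -0.05 ± 0.07, edgeR adjusted p = 0.689). In all 3 the groups overlapped. IRF1 and IRF2 also overlapped (0.19 ± 0.20 and 0.03 ± 0.11, edgeR adjusted p = 0.537 and 0.885).

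The MHC class I pathway was the role group with the most changed genes. Of its 12 genes 11 were tested, 6 were lower in KO (54.5%, where 11.5% of all genes were lower) and 5 did not pass, and the median was -0.49. The 6 were PSMB8, TAP1, TAP2, TAPBP, HLA-C and NLRC5, and DESeq2 called the same 6. B2M and HLA-E had every KO library below every WT library without passing, and PSMB9, PSMB10 and HLA-B overlapped between groups.

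PSMB8, TAP1 and TAP2, which make and carry peptides, lie near each other in the MHC region of chromosome 6. PSMB8 (ENSG00000204264, 32840717 to 32844679), an immunoproteasome subunit, had 19.1, 9.68 and 16.4 CPM in KO and 26.3, 27.9 and 28.1 CPM in WT, and fell by 0.86 ± 0.20 on the log2 scale (edgeR adjusted p = 0.00809). TAP1 (ENSG00000168394, 32845209 to 32853704), a chain of the peptide transporter, had 21.0, 13.4 and 15.3 CPM in KO and 27.2, 26.7 and 24.2 CPM in WT, and fell by 0.66 ± 0.15 (edgeR adjusted p = 0.00921). The 2 genes did not overlap between groups, and in both KO replicate 2 was the lowest library. TAP2 (ENSG00000204267, 32821831 to 32838739), the other chain, had 10.5, 11.8 and 12.2 CPM in KO and 15.7, 19.0 and 16.7 CPM in WT, and fell by 0.57 ± 0.12 (edgeR adjusted p = 0.00485). KO replicate 1 was the lowest library for TAP2. The other immunoproteasome subunits did not pass, PSMB9, next to TAP1, at 2.19, 1.25 and 0.933 CPM in KO and 2.13, 1.88 and 1.79 CPM in WT (-0.41 ± 0.36, edgeR adjusted p = 0.456) and PSMB10, on chromosome 16, at 11.9 ± 1.67 CPM in KO and 11.1 ± 0.763 CPM in WT (SD, n = 3 each; 0.10 ± 0.13, edgeR adjusted p = 0.630).

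Of the loading and presenting genes, TAPBP and HLA-C were lower, HLA-E, B2M and HLA-B did not pass, and HLA-F was too low to test. TAPBP (ENSG00000231925, chromosome 6 from 33299694 to 33314078), the peptide loader tapasin, had 86.2, 67.2 and 78.1 CPM in KO and 120, 103 and 103 CPM in WT, and fell by 0.49 ± 0.10 (edgeR adjusted p = 0.00457). HLA-C (ENSG00000204525, chromosome 6 from 31268749 to 31272092), a classical heavy chain, had 88.8, 64.7 and 78.2 CPM in KO and 124, 110 and 112 CPM in WT, and fell by 0.58 ± 0.11 (edgeR adjusted p = 0.00245). For both, all KO libraries were below all WT libraries. HLA-E, the non-classical heavy chain that inhibits natural killer cells, had 50.1, 37.1 and 49.8 CPM in KO and 59.1, 54.1 and 51.3 CPM in WT (-0.26 ± 0.12, edgeR adjusted p = 0.133). B2M, the light chain shared by all class I molecules, had 376, 332 and 354 CPM in KO and 400, 378 and 388 CPM in WT (-0.14 ± 0.06, edgeR adjusted p = 0.152). For HLA-E and B2M the KO libraries were also the 3 lowest, by less than the test required.

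HLA-B stood apart from the other heavy chains. This classical heavy chain had 2.29, 0.819 and 2.29 CPM in KO and 0.533, 0.964 and 1.07 CPM in WT (1.07 ± 0.46, edgeR adjusted p = 0.123), with KO replicate 2 inside the WT range and the other KO libraries above it. HLA genes are close copies whose alleles can be unlike the reference, and reads can be divided among them, so levels of single HLA genes are uncertain. The annotated GENCODE 29 gene of HLA-B overlaps that of HLA-C on the same strand. NLRC5 (ENSG00000140853, chromosome 16 from 56989557 to 57083520) had 6.42, 5.63 and 7.0 CPM in KO and 10.1, 8.37 and 12.4 CPM in WT, with no overlap, and fell by 0.70 ± 0.17 (edgeR adjusted p = 0.0127). Its call was lost without WT replicate 3 (edgeR adjusted p = 0.0572). Its direction turned on counts from the transcript files (0.18 when summed, edgeR adjusted p = 0.893, and 0.20 when corrected for length, edgeR adjusted p = 0.749). There GENCODE 29 transcripts hold 42.7% of its count, and that share was uneven. It was 51.2%, 15.2% and 100% in KO libraries 1, 2 and 3, and 53.2%, 16.8% and 24.8% in WT libraries 1, 2 and 3.

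**Figure D3:**
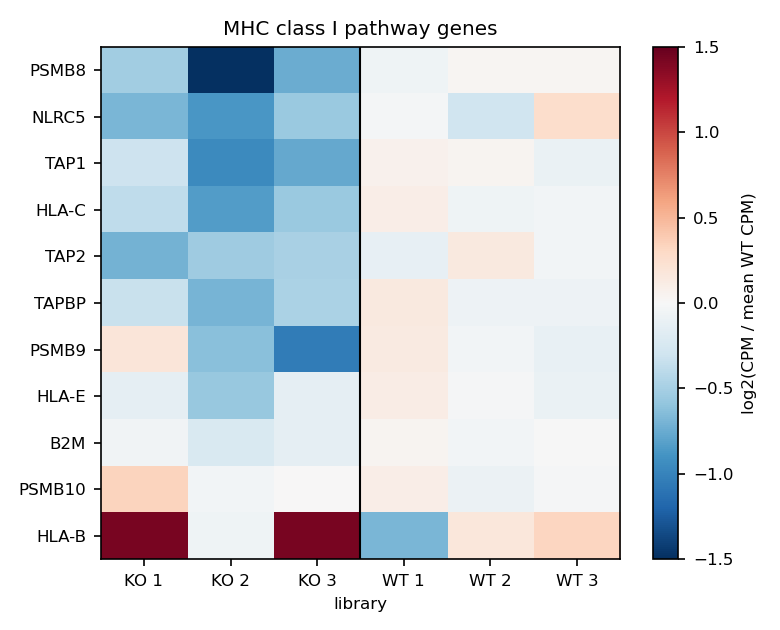
Level of the 11 tested MHC class I pathway genes in each library as log2 of CPM over the mean WT CPM of that gene; columns are KO replicates 1 to 3 at the left of the line and WT replicates 1 to 3 at the right, and blue is below and red above the WT mean. The upper 6 genes are blue in all 3 KO libraries, while HLA-B is red in KO replicates 1 and 3. The blue is deepest in KO replicate 2 for PSMB8, NLRC5, TAP1, HLA-C and TAPBP, and in KO replicate 1 for TAP2.

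**Figure D4:**
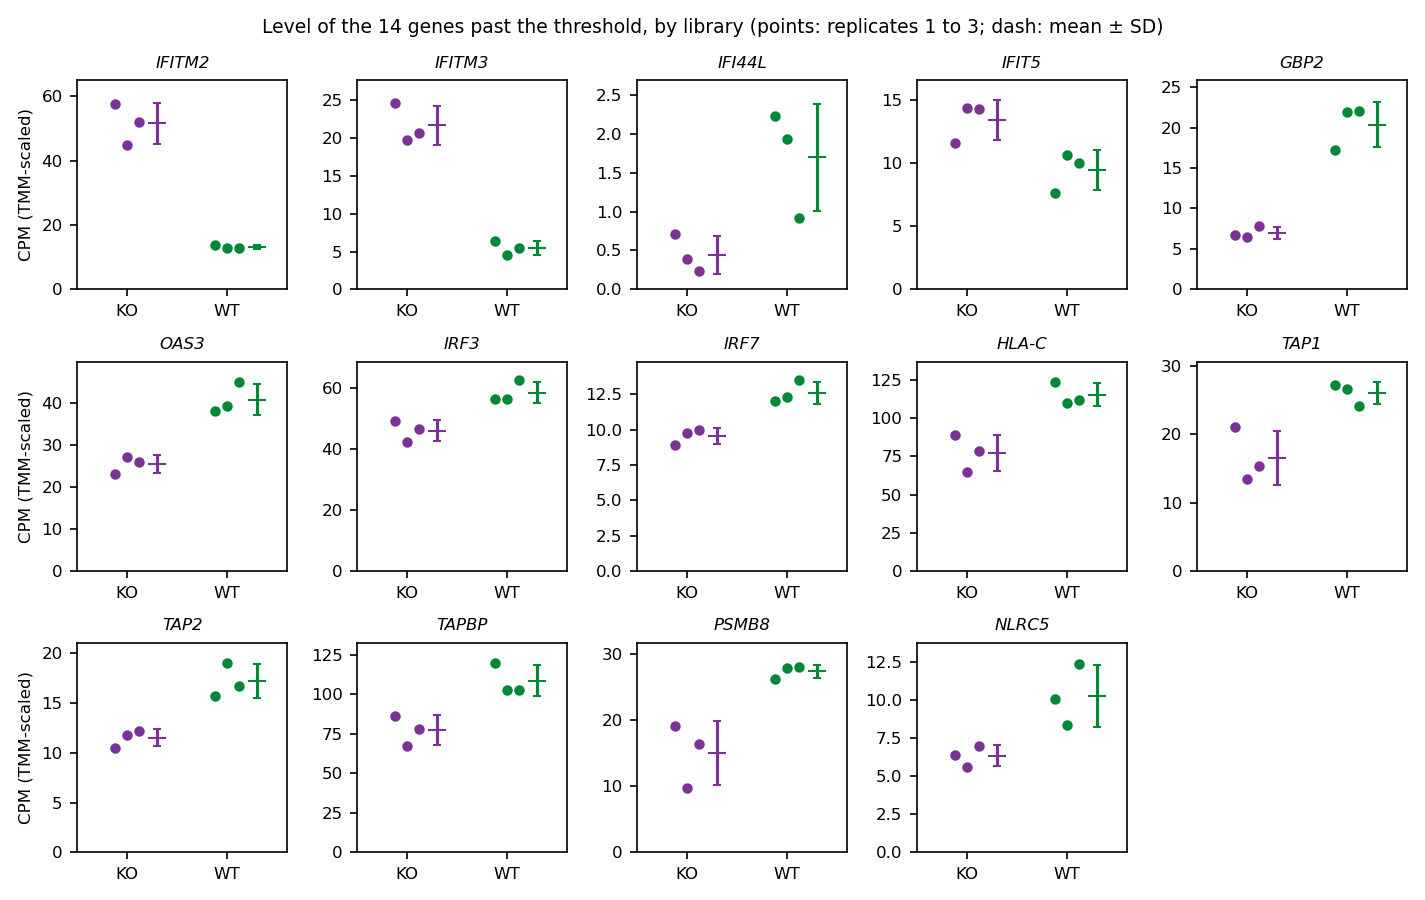
Level in TMM-scaled CPM of the 14 genes past the threshold, by library; points are replicates 1 to 3 of KO (purple) and WT (green), and the dash with its bar is the mean ± SD (n = 3). IFITM2, IFITM3 and IFIT5 are higher in KO and the other 11 genes are lower, without overlap between the groups in any panel.

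KO replicate 2 was often the lowest of the KO libraries. It was the lowest KO library for 9 of the 11 MHC class I genes (81.8%) and 31 of all 47 genes (66.0%), where it was the lowest for 41.5% of all tested genes. It was also the lowest KO library for 64 of 94 other genes of the MHC region (68.1%). Without that library 13 of the 14 calls were kept, IFIT5 being the one lost, and all 6 MHC class I calls were kept.

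The fall of the class I genes was set against their neighbours. From HLA-F to TAPBP (chromosome 6 from 29723434 to 33314078) 8 of the chosen genes were tested and 5 were lower, with a median of -0.53. Of 94 other tested genes in the same interval 7 were higher and 8 lower (16.0% called, against 26.0% of all genes), with a median of -0.06. Every KO library lay below every WT library in 23 of the 94 and above in 14, against 20.1% and 21.7% of all genes. Whether position bears on the fall was not tested. Within 1000 kb of TAP1 the median of 53 other genes was -0.09, with 3 higher and 8 lower. GBP2 had 11 other tested genes within 1000 kb, of which 4 were higher and 7 did not pass, where 14.5% of all genes were higher.

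Counting from the transcript files changed several of these calls. Of the 14 changed genes, 7 have at least 90% of their table count in GENCODE 29 transcripts, and all 7 kept their call on summed counts, among them PSMB8 (-0.86, edgeR adjusted p = 0.0236), TAP1 (-0.65, edgeR adjusted p = 0.0214) and HLA-C (-0.58, edgeR adjusted p = 0.00662). With length correction 5 of the 7 kept it. Of the 7 with a smaller share, 1 kept it in either form, IFITM2. TAP2 (25.7% of its count placed) stood at -0.67 (edgeR adjusted p = 0.0701) and TAPBP (61.3% placed) at -0.37 (edgeR adjusted p = 0.0912) on summed counts, both still below 0. TAP2 also overlaps AL669918.1 on the same strand, which had 411 counts in all against 1741 for TAP2, and PSMB8 and TAP1 overlap PSMB9 and PSMB8-AS1 on the opposite strand, with 205 and 152 counts in all against 2571 for PSMB8 and 2580 for TAP1.

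Per length, and for genes with at least 90% of their count placed, the order of levels in both genotypes began with B2M. It had 745 ± 37.0 TPM in KO and 868 ± 48.3 TPM in WT (SD, n = 3 each). ADAR followed with 99.9 ± 3.80 TPM in KO and 98.2 ± 12.4 TPM in WT, and HLA-C with 75.4 ± 11.1 TPM in KO and 118 ± 8.65 TPM in WT. ADAR and HLA-C stood in opposite order in the 2 genotypes, with ADAR at 96.8 to 104 TPM and HLA-C at 63.6 to 85.7 TPM in KO, and ADAR at 84.5 to 109 TPM and HLA-C at 113 to 128 TPM in WT. IFITM3 had 67.9 TPM in KO, close to the level of HLA-C there, and 17.9 TPM in WT, near ISG15 at 14.6 ± 4.39 TPM. Lower in the order, with other genes below them, TAP1 had 9.26 ± 2.20 TPM in KO and 15.4 ± 1.32 TPM in WT, and GBP2 5.06 ± 0.766 TPM in KO and 12.6 ± 3.30 TPM in WT.

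Other genes of the interferon and antigen presentation pathways were examined as a further list of 74 genes, of which 63 were in the table and 59 were tested. In KO 6 were higher and 13 lower (32.2% called, against 26.0% of all genes), with a median of -0.10. None of the 8 interferon ligand genes looked up (IFNB1, IFNE, IFNK, IFNW1, IFNG, IFNL1, IFNL2 and IFNL3) had an entry in the table. The lowest total of any gene with an entry was 10 counts. Interferon alpha genes were not on the list. Of 9 receptor and kinase genes 3 were lower and 6 did not pass (33.3% called, against 26.0% of all genes). IFNLR1, the chain specific to the receptor of interferon lambda, had 2.44, 3.13 and 3.31 CPM in KO and 9.54, 9.44 and 9.51 CPM in WT, and fell by 1.68 ± 0.17 on the log2 scale (edgeR adjusted p = 3.52e-05). IL10RB, its partner chain shared with interleukin 10 receptors, had 33.3, 27.1 and 29.8 CPM in KO and 36.9, 41.8 and 43.5 CPM in WT (-0.44 ± 0.11, edgeR adjusted p = 0.0105). JAK1, the kinase common to the interferon receptors, averaged 155 ± 16.7 CPM in KO and 199 ± 15.9 CPM in WT (SD, n = 3 each; -0.36 ± 0.09, edgeR adjusted p = 0.0138), and lost its call without KO replicate 3, WT replicate 2 or WT replicate 3 (adjusted p up to 0.0633) and when the transcript files were used (-0.24 on summed counts, edgeR adjusted p = 0.461). The groups did not overlap in any of the 3.

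Of 9 tested genes of the induction pathway, which leads from sensors to interferon, 2 were higher, 2 were lower and 5 did not pass, and of 5 inhibitors 1 was higher and 4 did not pass. CGAS, the cytosolic DNA sensor, had 0.306, 0.289 and 0.233 CPM in KO and 1.69, 2.03 and 2.35 CPM in WT (-2.85 ± 0.38, edgeR adjusted p = 0.000262). STING1, the adaptor that CGAS signals to, had 2.04, 1.35 and 1.82 CPM in KO and 0.387, 0.457 and 0.665 CPM in WT (1.78 ± 0.38, edgeR adjusted p = 0.00573), a call lost when the transcript files were used (adjusted p up to 0.372). Both genes were low in every library, and neither pair of groups overlapped. TRAF6, a ubiquitin ligase of Toll-like receptor signalling, fell by 0.50 ± 0.12 (26.0 ± 2.81 CPM in KO and 36.6 ± 4.49 CPM in WT, SD, n = 3 each; edgeR adjusted p = 0.0107, and 0.0587 without WT replicate 2). SOCS3, the feedback inhibitor of JAK signalling, had 24.2, 46.0 and 34.0 CPM in KO and 16.8, 16.5 and 16.9 CPM in WT (1.06 ± 0.19, edgeR adjusted p = 0.00208), all KO libraries above all WT libraries.

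Of 19 further interferon-stimulated genes 1 was higher and 4 were lower (26.3% called, near the 26.0% of all genes). TRIM5, a capsid-binding restriction factor, rose by 0.78 ± 0.11 (20.4 ± 1.68 CPM in KO and 11.9 ± 0.372 CPM in WT, SD, n = 3 each; edgeR adjusted p = 0.000321), a call lost when the transcript files were used (adjusted p up to 0.434). HERC6, of the family of ISG15 ligases, fell by 1.14 ± 0.19 (4.58 ± 0.971 CPM in KO and 10.1 ± 1.42 CPM in WT, SD, n = 3 each; edgeR adjusted p = 0.00122). LGALS3BP, a secreted galectin-binding glycoprotein, fell by 0.40 ± 0.07 (396 ± 26.5 CPM in KO and 523 ± 21.1 CPM in WT, SD, n = 3 each; edgeR adjusted p = 0.00113). The groups overlapped in none of these 3.

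Of 17 further antigen presentation genes 2 were higher and 4 lower (35.3% called, against 26.0% of all genes). TAPBPL, the tapasin-related peptide editor TAPBPR, had 4.33, 4.43 and 4.99 CPM in KO and 10.1, 10.0 and 8.13 CPM in WT, and fell by 1.04 ± 0.16 (edgeR adjusted p = 0.000661). PDIA3, the disulfide isomerase ERp57 of the loading complex, fell by 0.32 ± 0.06 (539 ± 13.5 CPM in KO and 675 ± 31.1 CPM in WT, SD, n = 3 each; edgeR adjusted p = 0.00187), but stood at 0.42 and 0.47 on summed and length-corrected counts from the transcript files. CANX, the chaperone calnexin, rose by 0.65 ± 0.11 (454 ± 71.7 CPM in KO and 290 ± 22.0 CPM in WT, SD, n = 3 each; edgeR adjusted p = 0.00104). Within 1000 kb of CANX, 16 of 19 other tested genes were higher and 3 did not pass, where 14.5% of all genes were higher. Their median fold change was 0.78. The constitutive proteasome subunits PSMB5, PSMB6 and PSMB7, which the immunoproteasome subunits replace, did not pass (-0.09, -0.10 and -0.02).

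**Figure D5:**
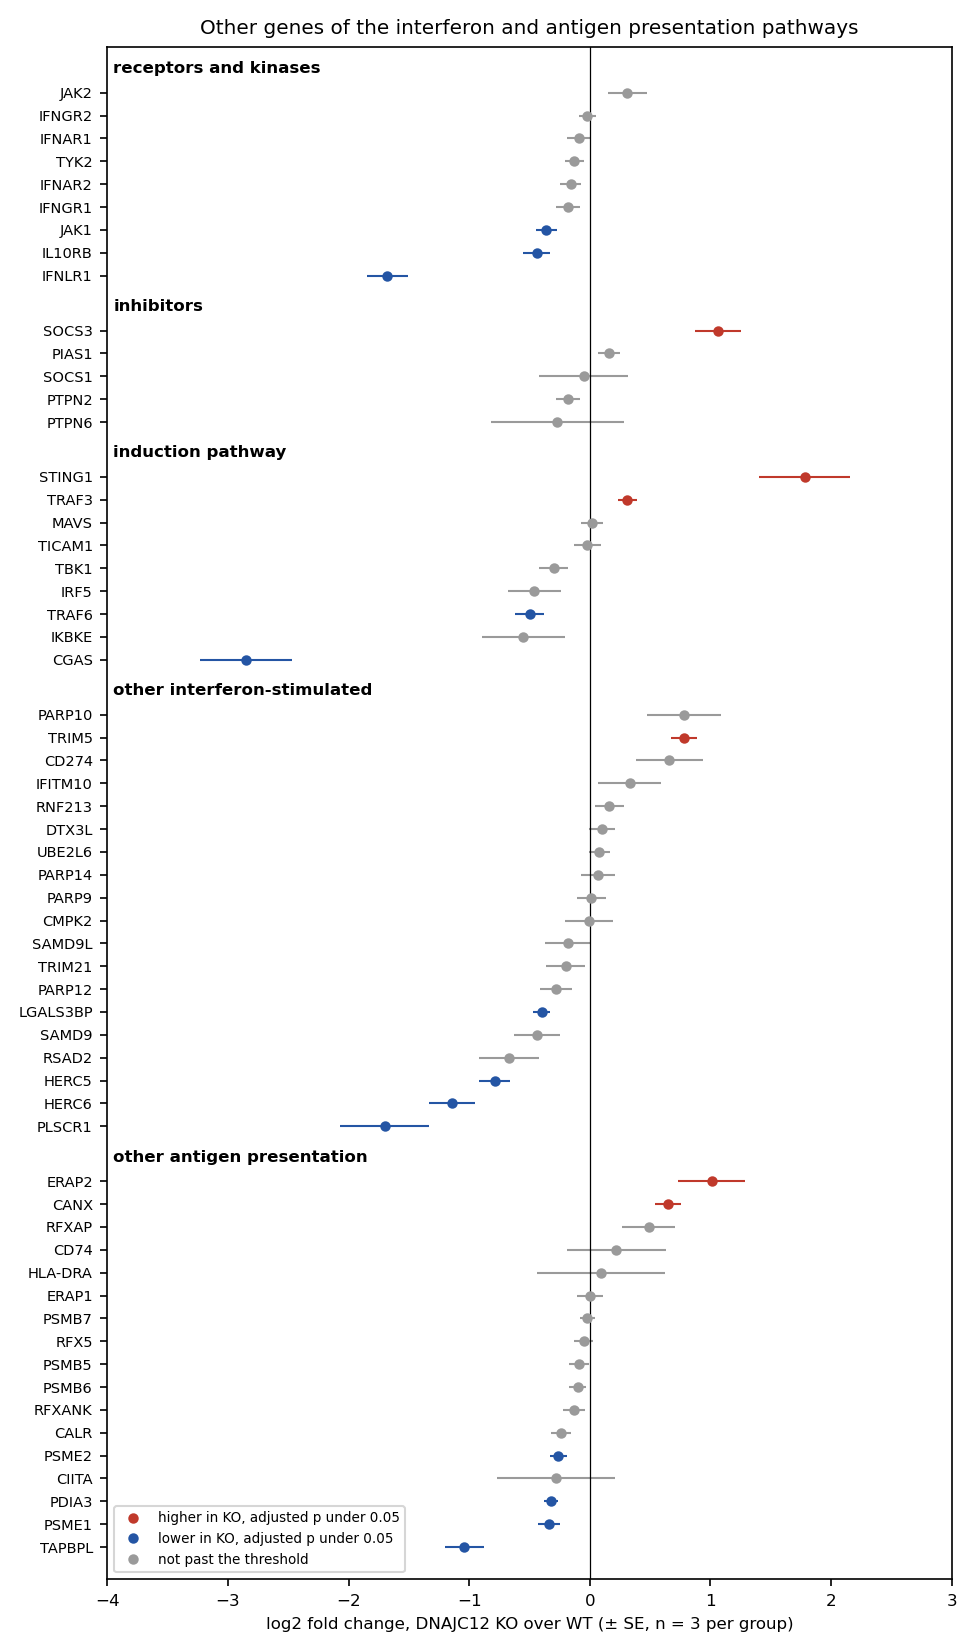
Log2 fold change of DNAJC12 KO over WT (± SE, n = 3 libraries per group) for the 59 tested genes of the wider pathway list, by sub-list and in order of size; red points were higher and blue points lower at an edgeR adjusted p under 0.05. CGAS and STING1 lie at opposite ends of the induction pathway, at -2.85 and 1.78, and IFNLR1 is the lowest of the receptors and kinases.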

How the data were processed

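RNA-seq libraries of 3 DNAJC12 KO and 3 WT samples of SH-SY5Y were compared. The authors' deposited gene table holds estimated counts, already rounded to whole numbers and not normalized, and per the file headers the deposited transcript files hold estimated counts and TPM for 251955 transcripts. The submitters' processing notes name cutadapt 3.5, Salmon 1.10.0, DESeq2 1.42.1 and GRCh38.p14 (hg38). Per the labels' protocols the libraries were stranded. The annotation release and the strand setting are not given in the sources used here, so near-identical, overlapping and antisense genes are uncertain. The table has 21071 lines, of which 403 repeats of 154 genes were removed.

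Counts were tested with edgeR 4.0.16 (R 4.3.3): filterByExpr, TMM and the two-sided quasi-likelihood F-test on genotype over all 16403 genes, with Benjamini-Hochberg adjustment at 0.05. The SE was derived from the F statistic (log2 fold change divided by its root). The scripts were tested on simulated data. Transcripts were assigned to genes by GENCODE 29, which holds 201667 of them and 94.2% to 94.6% of the reads. Gene positions and promoters are from RefSeq GRCh38.p14. The floor of 3 counts covers counting error only. No pair of replicates differed by as little as sampling noise.

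Alternatives were DESeq2 1.42.0, DESeq2 size factors, library size alone, no filter, a filter of 1 CPM in 3 libraries, a replicate block, each library left out, counts summed from the transcript files, the same corrected for length, and at least 1.5-fold change. All changed genes of the main list are named, with the 3 others of each role that had the highest mean TPM in the transcripts placed by GENCODE 29, and up to 3 changed genes of each further list by adjusted p. The genes and lists were chosen with earlier results of these data known. Other genes are named with their values where a group is described.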

Additional observations from a re-analysis of the deposited data

How the results depend on the processing

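DNAJC12 and the sum of IFITM2 and IFITM3 kept their direction and call in all settings, from -2.01 to -1.87 and from 1.88 to 2.05. The 11 lower interferon and antigen presentation genes became 6 on counts summed from the transcript files, 4 on length-corrected counts and 6 with at least 1.5-fold change (IRF3, IRF7, HLA-C, TAP2 and TAPBP were smaller, as was the rise of IFIT5). Over all genes the 4270 calls became 2539 on length-corrected counts and 2351 with at least 1.5-fold change, and the 19 calls of the wider list became 12 and 11. NLRC5 turned to 0.18 and 0.20 and PDIA3 to 0.42 and 0.47 on summed and length-corrected counts; transcripts outside GENCODE 29 were not used there, and the cause was not tested. Leaving out each library gave 2966 to 4772 calls over all genes, 2 to 4 higher and 8 to 11 lower genes of the main list and 15 to 22 of the wider list. The lowest total came without KO replicate 3. Library size alone moved the median gene by -0.056 and gave 2055 higher and 2438 lower genes, against 2383 and 1887, and kept 14 of the 14 calls. With a replicate block 4565 genes, 3 higher and 11 lower genes of the main list and 22 of the wider list were called. Same-numbered KO and WT libraries correlated at 0.06, -0.03 and -0.07, and not every library matched its own number best. The labels do not say what the numbers mean. With 3 libraries a group these values cannot decide whether same-numbered libraries belong together. The sum over gene ids of 1 symbol gave no other value, since each symbol had 1 id. Depth limits IFITM1, MX1, HLA-F, OAS2 and XAF1, and the small changes of IRF3, IRF7 and IFIT5 rest on 3 libraries a group.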
